A study of Arabidopsis thaliana with 12 samples.

Results

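Next to each other on chromosome 4 of Arabidopsis lies a run of genes that its working label describes as encoding proline-rich and lipid-transfer type proteins. Described here are 8 of its genes, each with 1 probe set annotated to it alone: AT4G22460, AT4G22470, AT4G22485, AT4G22490, AT4G22505, AT4G22513, AT4G22520 and AT4G22530. They are 8 of 17504 named probe sets. The 8 genes were selected on their position as neighbours and with their log2 differences between the 4 groups of the same 12 arrays already known, so every difference below is a description of these arrays, and no call on a member is offered as a test of it.

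RNA came from whole seedlings of the Col-0 ecotype, aged 10 d and grown in liquid medium with sucrose under long days, and was hybridised to 12 Affymetrix AraGene 1.1 ST chips, with each sample on its own array. The 4 groups, each with 3 biological replicates, were amp1-13 with 30 µM hyperphyllin, amp1-13 with the solvent DMSO, wild type with 30 µM hyperphyllin and wild type with DMSO. All 12 samples received DMSO at 1%, and amp1-13 is the only mutant allele used. The AMP1 protein resembles carboxypeptidases and sits in the endoplasmic reticulum; its loss enlarges the shoot meristem and adds leaves, and hyperphyllin is a small molecule that gives wild-type plants similar features. The AMP1 transcript was not used here as a check of genotype.

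Lipid-transfer proteins are small secreted proteins held together by conserved disulfide bridges around a cavity that can hold a lipid. In plants they are known for roles in cuticle formation, cell wall properties and defence. A hybrid proline-rich protein carries the same kind of cysteine-rich domain behind a proline-rich stretch that can anchor it in the cell wall or membrane. Neither the array annotation nor the RefSeq gene table gave a product name for any of the 8 genes. Whether each belongs to either of these 2 protein types or to another was thus not checked, and AT4G22530 may be of another type. Each gene is called by its locus code.

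From the first to the last member the RefSeq table of assembly TAIR10.1 listed 14 loci, of which 8 are the genes described and 6 are not. Only AT4G22490 overlapped no other locus of the run. AT4G22520 and AT4G22530 overlapped each other. AT4G22460, AT4G22470, AT4G22485, AT4G22505 and AT4G22513 each overlapped 1 locus that is no member, namely AT4G22463, AT4G22467, AT4G22475, AT4G22495 and AT4G22510. Whether the probes tell overlapping loci or close copies in the run apart was not determined. A further probe set, annotated with several genes of which AT4G22513 is 1, was left out.

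The values are log2 expression after RMA, which corrects background, scales arrays to each other and merges the probes of a transcript. Levels of different probe sets are not on a common scale, so each gene's differences were taken between groups. Levels were set beside those of other probe sets to mark dim ones, to pick the brightest for a gene and in sums of tissue markers. Array medians over named probe sets lay between 4.13 and 4.18. DMSO arrays 2 and 3 of wild type stood apart from the other 10 on principal component 1, which held 40.4% of the variance, with scores of 43.9 and 47.7 against -28.1 to 0.78. DMSO array 1 of wild type had a score of -9.82 and lay among the others, and its mean correlation was 0.973 with its own group and 0.987 with the other groups. Many of the differences that use that array, though not all, are therefore also given without it.

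In wild type, 6 of the 8 genes were higher with hyperphyllin than with DMSO, by 1.03 to 2.44 on the log2 scale, while AT4G22460 was lower and AT4G22530 differed by only 0.10. The comparison asks how seedlings with intact AMP1 differ with and without the compound. A gene counts as called where limma's Benjamini-Hochberg adjusted p over the 17504 named probe sets was under 0.05. The 6 higher genes were called, against 1.16% of all named probe sets called higher. Since the genes were picked with this contrast known, nothing is read from that count.

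AT4G22470 showed the widest spread over the 12 arrays. Its log2 values were 8.69, 8.82 and 8.60 in wild type with hyperphyllin, against 7.54, 5.75 and 5.49 in wild type with DMSO. The treated arrays lay close together, and all were above the DMSO arrays, of which array 1 was the highest. The log2 difference was 2.44 ± 0.40 (SE, 3 arrays per group), a 5.42-fold difference and rank 11 from the top among the named probe sets. It was 3.08 without DMSO array 1 and 1.16 when that array stood alone for its group, so its size rested on which DMSO arrays were used.

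AT4G22520 had log2 values of 7.63, 7.70 and 7.45 in wild type with hyperphyllin, against 6.27, 5.89 and 5.32 in wild type with DMSO. The 2 groups did not overlap, and DMSO array 1 was again the highest of its group. The difference was 1.77 ± 0.21, or 3.41-fold, with 1.99 without DMSO array 1 and 1.32 with that array alone. AT4G22530, which overlaps AT4G22520 in the gene table, did not follow it. Its values were 4.66, 4.64 and 4.75 with hyperphyllin, against 4.62, 4.54 and 4.59 with DMSO. The treated arrays were all higher, but the difference was 0.10 ± 0.10.

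**Figure D1:**
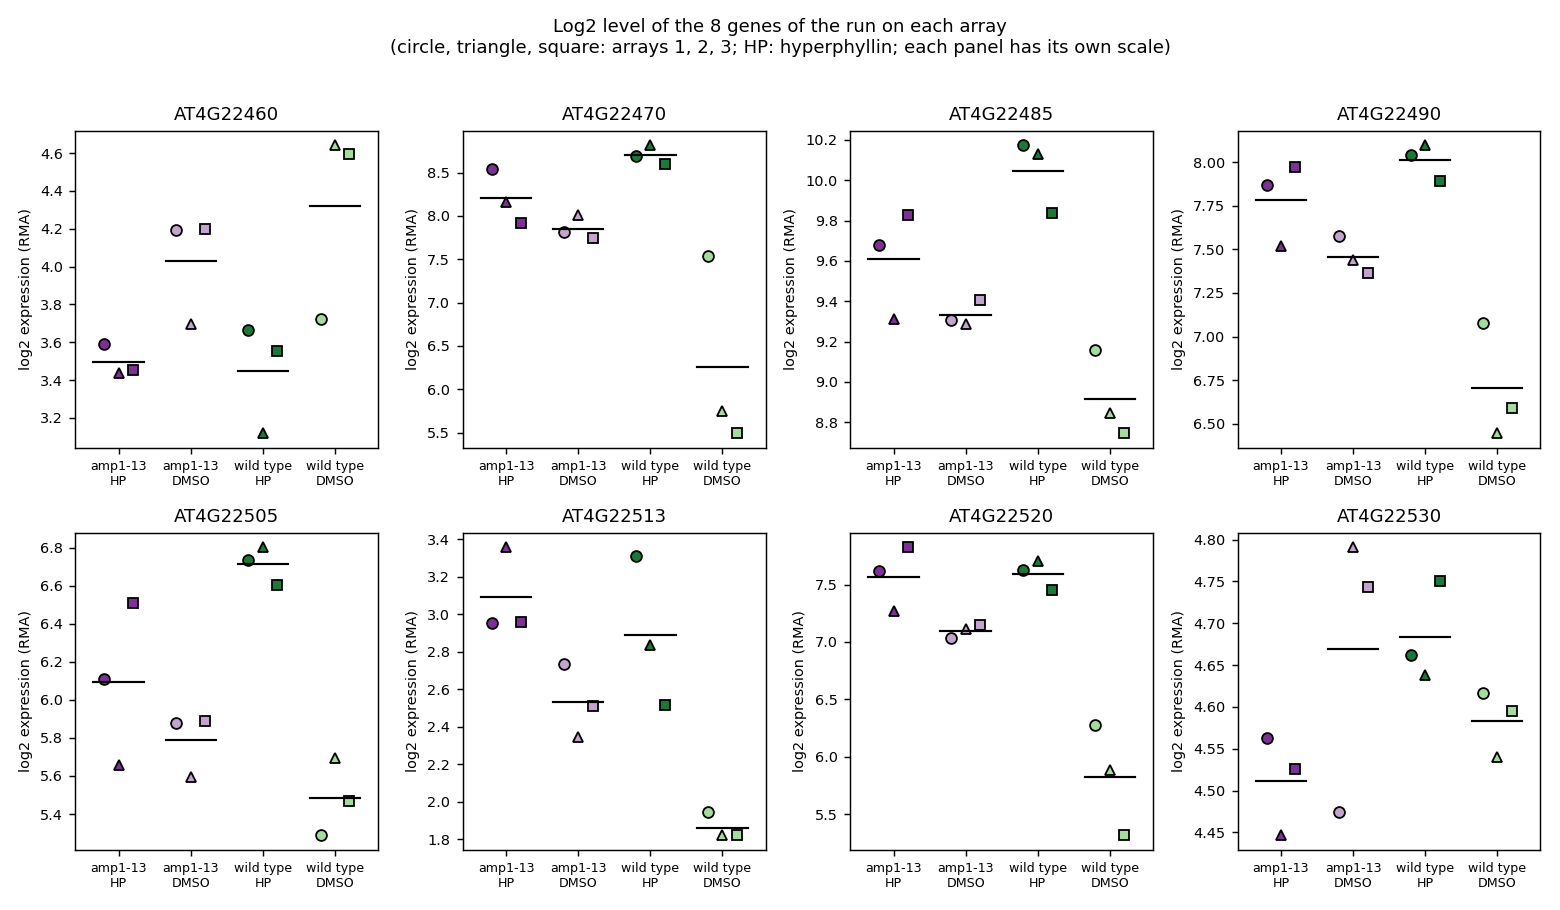
Log2 expression (RMA) of each gene of the run on each of the 12 arrays, with hyperphyllin (HP) or DMSO in amp1-13 and wild type; bars are group means of 3 arrays and each panel has its own vertical scale. Wild-type DMSO arrays lie below all 9 other arrays for AT4G22470, AT4G22485, AT4G22490, AT4G22513 and AT4G22520, array 1 of that group lies nearest the other groups for AT4G22470, and AT4G22460 has its 2 highest values in wild-type DMSO arrays 2 and 3.

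In the middle of the run AT4G22485, AT4G22490 and AT4G22505 had similar differences. AT4G22485 had log2 values of 10.17, 10.13 and 9.84 in wild type with hyperphyllin, against 9.16, 8.84 and 8.75 in wild type with DMSO, a difference of 1.13 ± 0.15. For AT4G22490 the values were 8.04, 8.10 and 7.89 with hyperphyllin, against 7.08, 6.45 and 6.59 with DMSO, a difference of 1.31 ± 0.16. Both genes had DMSO array 1 as the highest array of its group, though below every treated array, and without it the differences were 1.25 for AT4G22485 and 1.49 for AT4G22490. AT4G22505 had values of 6.73, 6.80 and 6.60 with hyperphyllin, against 5.29, 5.69 and 5.47 with DMSO, a difference of 1.23 ± 0.19. Here DMSO array 1 was the lowest of its group, and the difference was 1.13 without it and 1.43 with it alone. The groups of all 3 genes were separate.

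AT4G22513 was dim, below the median of every array. It had log2 values of 3.31, 2.84 and 2.52 in wild type with hyperphyllin, against 1.95, 1.82 and 1.82 in wild type with DMSO, a difference of 1.03 ± 0.19. The treated arrays spread over 0.80 and the DMSO arrays over 0.12, without overlap. Without DMSO array 1 the difference was 1.07. The values of DMSO arrays 2 and 3 were identical. Whether so dim a probe set was above background is not known here.

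At the start of the run AT4G22460 went the other way. Its values were 3.66, 3.12 and 3.56 in wild type with hyperphyllin, against 3.72, 4.64 and 4.60 in wild type with DMSO. The groups did not overlap, but DMSO array 1 was only just above the treated arrays. The difference was -0.88 ± 0.24 and was not called; it was -1.17 without DMSO array 1, where it was called, and -0.28 with that array alone. Its 12 values had a range of 1.52, and on 8 arrays it lay below the array median.

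All treated arrays lay above all DMSO arrays for 7 of the 8 genes, AT4G22530 included, against 8.75% of named probe sets, and below them for AT4G22460 alone, against 11.0%. The median log2 difference of the 8 genes was 1.18, against -0.05 over all named probe sets. Without DMSO array 1 of wild type 7 genes were called, with 14.0% of all named probe sets called in either direction. Without hyperphyllin array 2 of wild type 2 genes were called, AT4G22490 and AT4G22520, with 0.131% of all. These 2 were called under every alternative that was run.

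**Figure D2:**
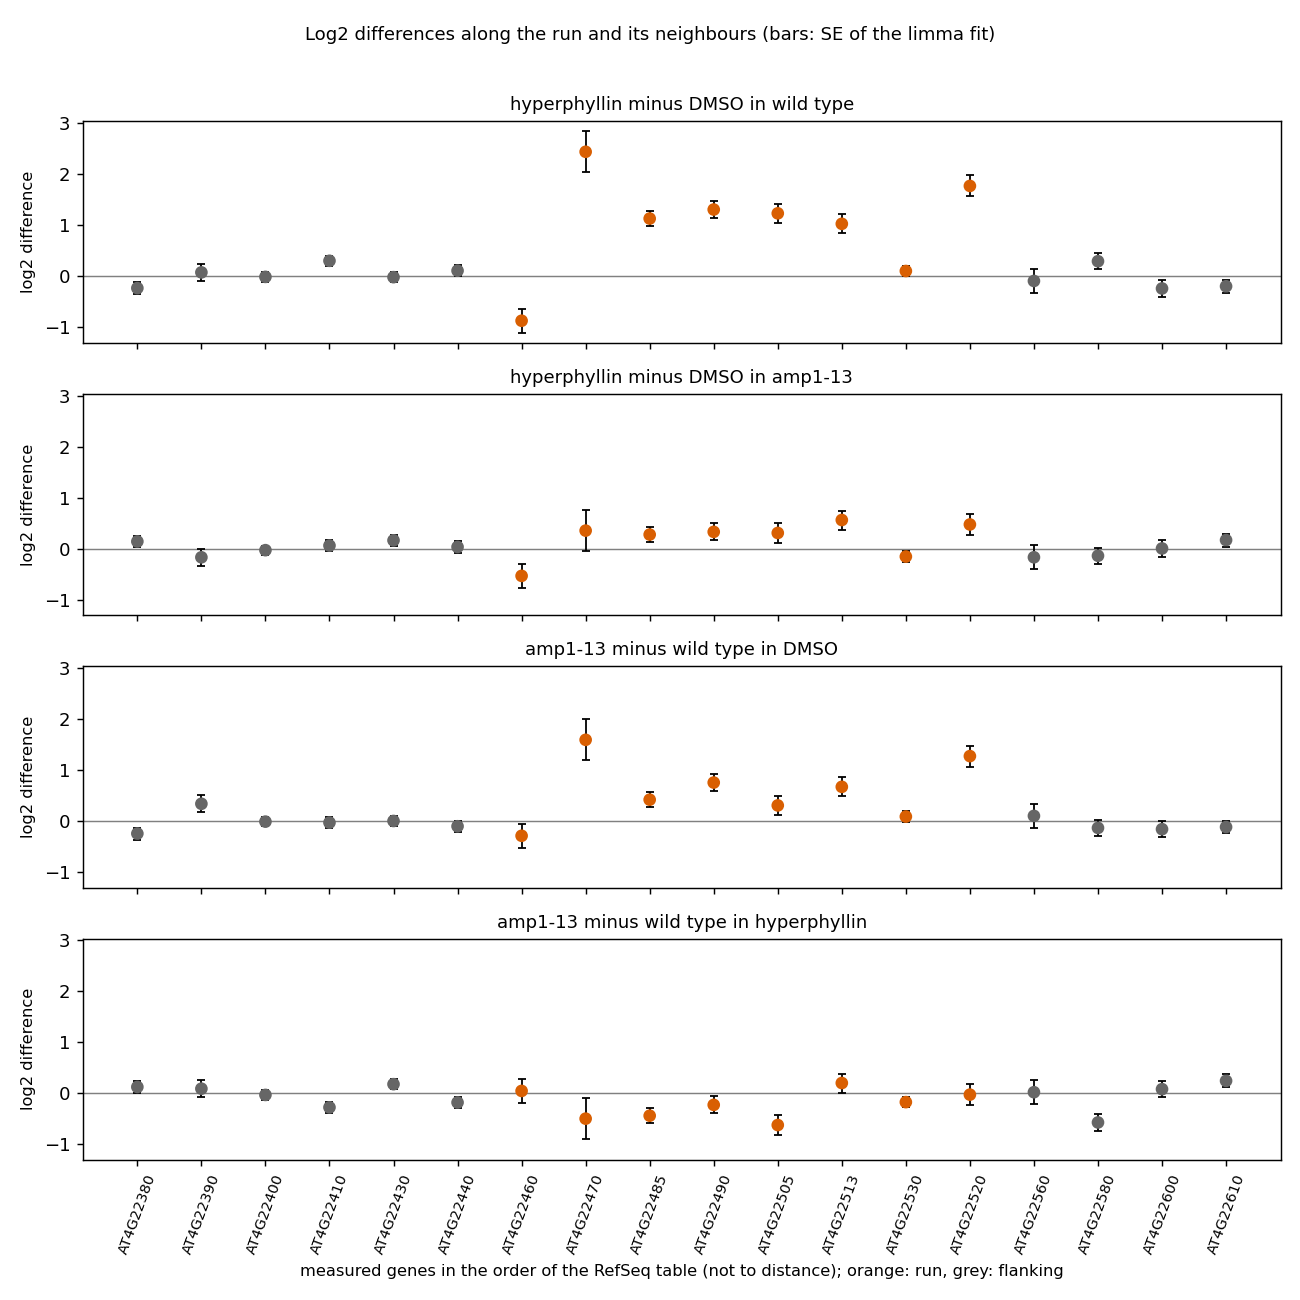
Log2 differences (vertical axis) with the SE of the limma fit for the measured genes in the order of the RefSeq table (horizontal axis, not to distance), orange for the run and grey for the flanking genes, in 4 comparisons of 3 arrays with 3. With hyperphyllin in wild type 6 genes of the run lie between 1.03 and 2.44, AT4G22460 at -0.88 and AT4G22530 at 0.10. The 10 flanking genes lie between -0.24 and 0.30. The genes of the run were picked with this contrast known, so nothing is read from the gap.

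Of the 20 loci that flank the run, 10 on each side, 10 had a probe set of their own. The run was picked with its own differences known, so a gap between it and the flanking genes is a description only. The values below are those of the 10 measured flanking genes. With hyperphyllin in wild type their log2 differences ran from -0.24 to 0.30, and 0 were called, also without DMSO array 1, where they ran from -0.29 to 0.30. The nearest measured gene before the run, AT4G22440, was at 0.11 ± 0.11, and the nearest one after it, AT4G22560, at -0.10 ± 0.23. In amp1-13 the flanking genes ran from -0.17 to 0.17 with hyperphyllin, and between the genotypes in DMSO from -0.25 to 0.34, again with 0 called. With hyperphyllin they ran from -0.57 to 0.25 between the genotypes, with 0 called. The lowest was AT4G22580 at -0.57 ± 0.16, every amp1-13 array below every wild-type array, a gene singled out after its values were seen. In that comparison the flanking genes thus reached about as far from 0 as the run itself, whose lowest value was -0.62.

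In amp1-13 the same 6 genes had higher means with hyperphyllin than with DMSO, but by 0.27 to 0.56 only. This comparison asks what the compound did when AMP1 was mutated. AT4G22470 had log2 values of 8.54, 8.15 and 7.92 in amp1-13 with hyperphyllin, against 7.81, 8.01 and 7.74 in amp1-13 with DMSO. The groups overlapped, and the difference was 0.35 ± 0.40. AT4G22520 had values of 7.61, 7.27 and 7.82 with hyperphyllin, against 7.04, 7.11 and 7.15 with DMSO, without overlap, a difference of 0.47 ± 0.21. AT4G22513 was also separate, with 2.96, 3.36 and 2.96 against 2.74, 2.35 and 2.51, a difference of 0.56 ± 0.19.

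Overlap with the DMSO arrays came from 1 treated array for 3 of the genes. AT4G22485 had values of 9.68, 9.31 and 9.83 in amp1-13 with hyperphyllin, against 9.31, 9.29 and 9.40 in amp1-13 with DMSO, a difference of 0.27 ± 0.15. For AT4G22490 they were 7.87, 7.52 and 7.97 with hyperphyllin, against 7.57, 7.44 and 7.36 with DMSO, a difference of 0.33 ± 0.16. AT4G22505 had 6.11, 5.66 and 6.51 with hyperphyllin, against 5.88, 5.59 and 5.89 with DMSO, a difference of 0.31 ± 0.19. In each of them hyperphyllin array 2 of amp1-13 was the lowest treated array. Without it the differences were 0.42, 0.46 and 0.52, and without hyperphyllin array 3 they were 0.16, 0.23 and 0.10. The difference of AT4G22470 was 0.18 without hyperphyllin array 1. The size of these differences thus rested on single arrays.

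AT4G22460 was lower with hyperphyllin in amp1-13 as well. Its values were 3.59, 3.44 and 3.45 with the compound, against 4.19, 3.70 and 4.20 with DMSO, a difference of -0.54 ± 0.24 with no overlap. AT4G22530 had 4.56, 4.45 and 4.53 with hyperphyllin, against 4.47, 4.79 and 4.74 with DMSO, a difference of -0.16 ± 0.10 with overlap.

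Of the 8 genes 0 were called by limma in amp1-13, where 0.0171% of all named probe sets were called in either direction, and 3 had an unadjusted p under 0.05, against 7.17% of all. Treated arrays lay wholly above DMSO arrays for 2 genes, against 8.22% of named probe sets, and wholly below for AT4G22460, against 8.70%. The median log2 difference of the 8 genes was 0.32. No alternative setting called any of them in this comparison.

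Without the compound, the 6 genes also had higher means in amp1-13 than in wild type, by 0.30 to 1.59. AT4G22470 differed by 1.59 ± 0.40, a 3.01-fold difference, and AT4G22520 by 1.27 ± 0.21, or 2.41-fold. AT4G22490 differed by 0.75 ± 0.16, AT4G22513 by 0.67 ± 0.19 and AT4G22485 by 0.42 ± 0.15. For these 5 genes every amp1-13 array lay above every wild-type array, against 6.91% of named probe sets. AT4G22505 was at 0.30 ± 0.19, AT4G22460 at -0.29 ± 0.24 and AT4G22530 at 0.09 ± 0.10, each with overlap. Of the 8 genes AT4G22520 alone was called, against 0.257% of named probe sets called higher.

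For AT4G22470, AT4G22520 and AT4G22490 the difference between the genotypes in DMSO was larger against DMSO arrays 2 and 3 of wild type than against array 1. AT4G22470 was 2.23 higher in amp1-13 without array 1 and 0.31 higher with array 1 alone for wild type. For AT4G22520 the differences were 1.49 and 0.82, and for AT4G22490 0.94 and 0.38. AT4G22460 was at -0.59 without array 1 and at 0.31 with it alone, so its sign depended on the arrays used. AT4G22505 went the other way from the first 3 genes, at 0.21 without array 1 and 0.50 with it alone. Without array 1, 6 genes were called, 5 higher and AT4G22460 lower, with 15.3% of all named probe sets called in either direction. The single call, AT4G22520, was lost on leaving out any other of the 11 arrays.

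**Figure D3:**
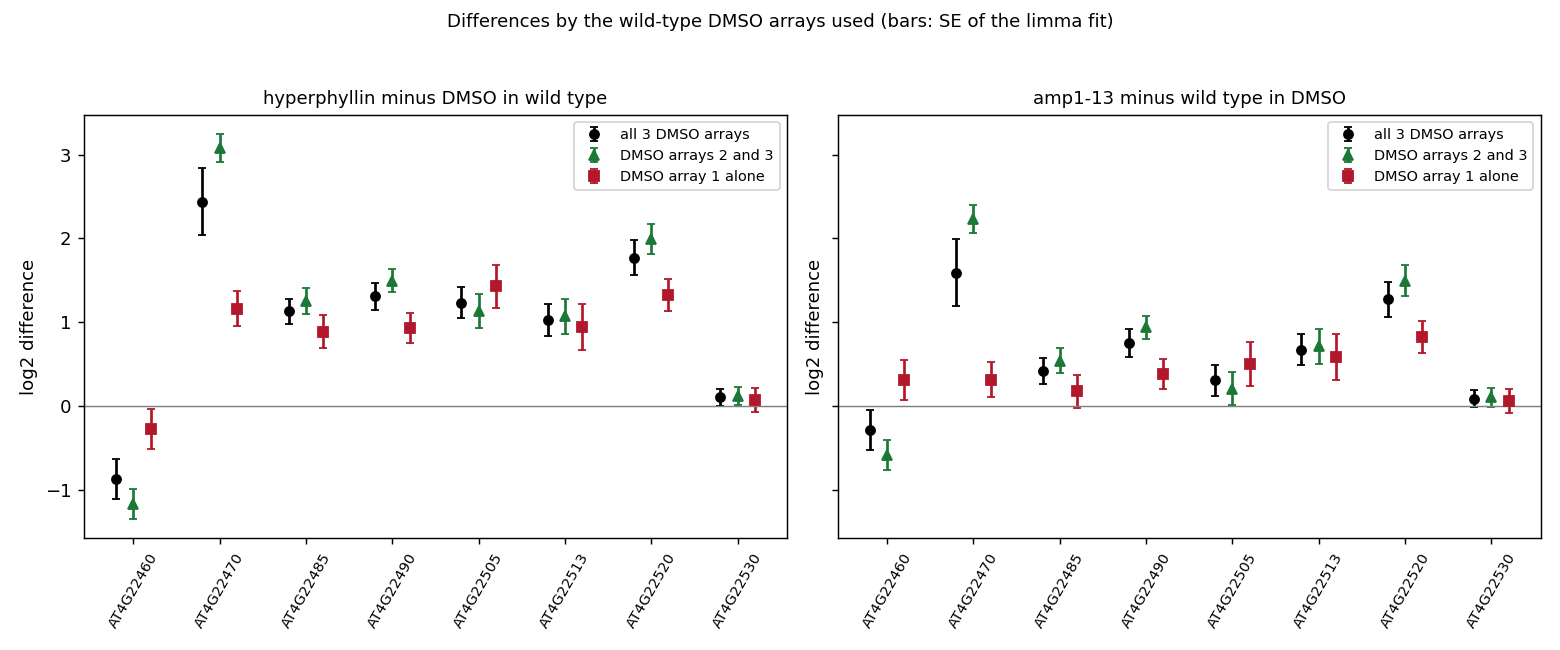
Log2 difference (vertical axis) with the SE of the limma fit for each gene of the run, computed with all 3 wild-type DMSO arrays, with arrays 2 and 3, and with array 1 alone, for hyperphyllin against DMSO in wild type (left) and amp1-13 against wild type in DMSO (right). For AT4G22470 the left panel runs from 1.16 with array 1 alone to 3.08 without it, and AT4G22460 crosses 0 in the right panel.

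The position of DMSO array 1 of wild type can be given directly. It lay 1.92 above the mean of arrays 2 and 3 for AT4G22470, 0.67 above it for AT4G22520, 0.56 for AT4G22490 and 0.37 for AT4G22485. It differed from them by -0.90 for AT4G22460 and by -0.29 for AT4G22505. For AT4G22513 and AT4G22530 it lay 0.12 and 0.05 above them. Array 1 was thus nearer to the treated and mutant arrays for most of the run, but not for AT4G22505.

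Both comparisons above use the wild-type DMSO arrays, so a chance deviation of those arrays enters both. Set side by side, the log2 differences for hyperphyllin in wild type and for amp1-13 in DMSO were 2.44 and 1.59 for AT4G22470. They were 1.77 and 1.27 for AT4G22520, and 1.23 and 0.30 for AT4G22505. AT4G22505 was thus high in treated wild type and close to wild-type DMSO in untreated amp1-13.

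With hyperphyllin given to both genotypes, 6 of the 8 genes had lower means in amp1-13 than in wild type, by at most 0.62. AT4G22505 was at -0.62 ± 0.19, AT4G22470 at -0.50 ± 0.40, AT4G22485 at -0.44 ± 0.15 and AT4G22530 at -0.17 ± 0.10, and for these 4 genes every amp1-13 array lay below every wild-type array, against 10.6% of named probe sets. AT4G22490 was at -0.23 ± 0.16 and AT4G22520 at -0.03 ± 0.21, both with overlap. AT4G22513 was at 0.20 ± 0.19 and AT4G22460 at 0.05 ± 0.24, also with overlap. Limma called 0 of the 8, with 0.229% of all named probe sets called, and 2 had an unadjusted p under 0.05, against 10.0% of all.

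The order of the 4 group means was the same for AT4G22470, AT4G22485, AT4G22490, AT4G22505 and AT4G22520. Treated wild type was highest, then treated amp1-13, then amp1-13 with DMSO, and wild type with DMSO was lowest. Neighbours in that order did not all differ beyond their spread. Treated amp1-13 overlapped untreated amp1-13 in each of these genes except AT4G22520. Treated wild type did not overlap treated amp1-13 in AT4G22470, AT4G22485 and AT4G22505, but for AT4G22485 the nearest arrays were at 9.835 and 9.828. Untreated amp1-13 was clear of untreated wild type in all but AT4G22505. AT4G22513 had treated amp1-13 highest at 3.09 ± 0.23 (SD, n = 3) and treated wild type next at 2.89 ± 0.40, with overlap. AT4G22460 ran in the reverse order, with wild type in DMSO highest at 4.32 ± 0.52 and treated wild type lowest at 3.45 ± 0.29.

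The response to hyperphyllin was smaller in amp1-13 than in wild type by 2.09 ± 0.57 for AT4G22470 and by 1.30 ± 0.29 for AT4G22520, as the interaction of genotype and treatment. AT4G22490 had an interaction of -0.98 ± 0.23, AT4G22505 of -0.93 ± 0.27 and AT4G22485 of -0.85 ± 0.22. AT4G22513 was at -0.47 ± 0.26, AT4G22530 at -0.26 ± 0.14 and AT4G22460 at 0.34 ± 0.33. Limma called 0 of the 8 genes, as it called 0% of the named probe sets, and 5 had an unadjusted p under 0.05, against 8.27% of all. Without DMSO array 1 of wild type 4 genes were called, all lower, with 2.75% of all. For AT4G22470 the interaction then was -2.73, and it was -0.81 with array 1 alone in its group. Without array 1 the interaction was -1.52 for AT4G22520, -1.17 for AT4G22490 and -0.98 for AT4G22485.

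Over the 12 arrays the 15 pairs of the 6 genes other than AT4G22460 and AT4G22530 had Pearson r from 0.60 to 0.96, with a median of 0.85. These 6 are the genes called higher with hyperphyllin in wild type, so their shared group means enter these values. AT4G22490 and AT4G22520 were the closest pair. The points share group and treatment. After the group means were taken out the median was 0.33, with a range from -0.38 to 0.86, and AT4G22485 and AT4G22520 were then the closest pair. AT4G22513 then had r from -0.19 to 0.11 with the others of the 6, so it did not follow them within groups. AT4G22460 had r = -0.87 with AT4G22470, and -0.78 with the group means taken out. The spread among the wild-type DMSO arrays enters that value. Array 1 of that group differed from the mean of arrays 2 and 3 by 1.92 for AT4G22470 and by -0.90 for AT4G22460. No correlation was computed without array 1. AT4G22530 lay between -0.24 and 0.23 with the 7 others.

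Outside the run, the 5 named genes most like the mean standardised profile of the 8 genes over the 12 arrays were BIK1 (r = 0.94), AT1G77060 (0.94), AT1G71710 (0.93), AT3G05727 (0.93) and AT1G25375 (0.93). All 8 genes had equal weight in that profile, including AT4G22460, which ran opposite to most others, and AT4G22530, which varied apart from them. BIK1 encodes a receptor-like cytoplasmic kinase of immune signalling. An r of at least 0.9 was reached by 17 of 17496 other named probe sets. With the group means taken out the 5 most alike were different genes, AT1G61500 (0.96), AT2G46567 (0.95), AT3G22410 (0.95), AT4G10843 (0.93) and AT2G24250 (0.93).

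For single members the most alike gene was AT1G78995 for AT4G22470 (r = 0.97), AT5G46390 for AT4G22520 (0.96) and AT3G05727 for AT4G22485 (0.98). AT4G22490 was most like AT5G64110 (0.95), AT4G22505 most like AT4G01130 (0.92) and AT4G22513 most like AT5G43745 (0.93). AT4G22460 was most like AT5G60530 (0.97), and AT4G22530 was most like CYP71B24, a cytochrome P450 gene (0.88). These values have n = 12 arrays and are the highest of many, given as a description.

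Related genes elsewhere in the genome were taken from 3 lists. Of 21 loci listed as hybrid proline-rich proteins outside the run, 14 were measured and 0 were called with hyperphyllin in wild type. Of these, 8 had higher means and the median was 0.23. AT4G12490 was at 1.01 ± 0.35 and AT4G15160 at -0.80 ± 0.41. For amp1-13 against wild type in DMSO the median of the list was 0.45, with 10 of 14 higher and 0 called, against 0.54 for the run. The numbers called, in the list as over all named probe sets, rested on DMSO array 1 of wild type. Without it, 6 of the 14 were called higher and 2 lower with hyperphyllin in wild type, where 6.30% of all named probe sets were called higher and 7.69% lower, and the median was 0.50, against 1.19 for the run. Between the genotypes in DMSO, 6 were then called higher and 1 lower, where 7.15% of all were called higher and 8.11% lower, and the median was 0.47, against 0.62 for the run. In that comparison 10 of 14 still had higher means.

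Of 31 loci listed as lipid-transfer proteins outside the run, 15 were measured. With hyperphyllin in wild type 6 had higher means, 0 were called and the median was -0.03, close to the -0.05 of all named probe sets. The furthest from 0 were AT2G44290 at 0.72 ± 0.26 and AT2G18370 at -0.71 ± 0.58. Without DMSO array 1, 2 were called higher and 2 lower, with a median of -0.11, where 6.30% of all named probe sets were called higher and 7.69% lower. Between the genotypes in DMSO the median was -0.07 with 0 called. Without array 1 it was -0.13 with 3 called higher and 2 lower, where 7.15% of all named probe sets were called higher and 8.11% lower.

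Structural wall proteins, the extensins and proline-rich proteins that are crosslinked into the wall, had lower means. All 10 measured of 21 listed had lower means with hyperphyllin in wild type, from -1.46 to -0.21 with a median of -0.82, and 0 were called. AT3G54580 was at -1.46 ± 0.60 and HRGP1, a hydroxyproline-rich glycoprotein gene, at -1.14 ± 0.28. In amp1-13 all 10 were lower with hyperphyllin too, with a median of -0.49, and in DMSO 9 of 10 were lower in amp1-13 than in wild type, with a median of -0.60. Of the 10, 0 were called in either comparison. Without DMSO array 1 of wild type, 7 of the 10 were called lower with hyperphyllin in wild type, against 7.69% of all named probe sets, with a median of -1.26. Between the genotypes in DMSO all 10 were then lower in amp1-13, 6 were called lower, against 8.11% of all, and the median was -1.09. The difference between the run and these lists was not tested.

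**Figure D4:**
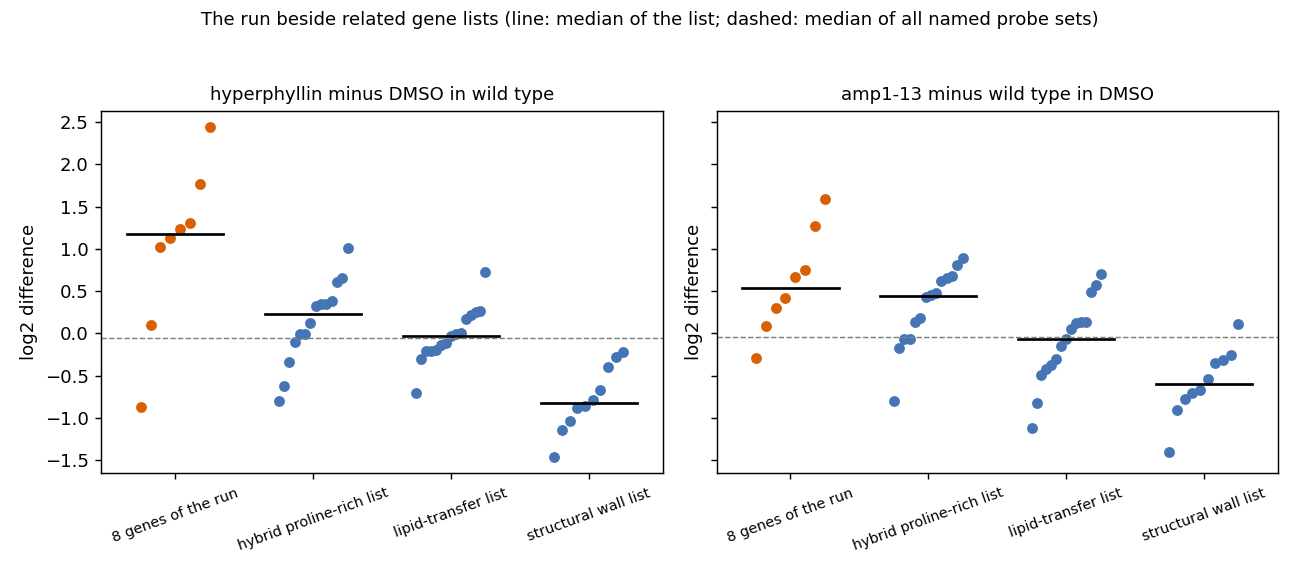
Log2 difference of each measured gene (points) in the run and in 3 lists of related genes, with the median of each list as a line and the median of all named probe sets dashed, for hyperphyllin against DMSO in wild type (left) and amp1-13 against wild type in DMSO (right). In the left panel the median is 1.18 for the run, 0.23 for the hybrid proline-rich list, -0.03 for the lipid-transfer list and -0.82 for the structural wall list.

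Markers of tissues were measured in small number. In whole seedlings a smaller share of a cell type and less RNA per cell cannot be told apart. Of 8 root hair markers 2 were measured, EXPA7 and EXPA18, both expansin genes. Their summed level (log2 of the sum of unlogged values) ran from 5.26 to 6.23 in treated amp1-13, from 6.02 to 6.24 in untreated amp1-13, from 5.56 to 6.12 in treated wild type and from 5.68 to 7.30 in untreated wild type. Brighter probe sets weigh more in such a sum. With hyperphyllin in wild type EXPA7 was at -0.99 ± 0.35 and EXPA18 at -0.94 ± 0.46, neither called. Both were called lower without DMSO array 1, against 7.69% of all named probe sets. Between the genotypes in DMSO EXPA7 was at -0.61 ± 0.35 and EXPA18 at -0.57 ± 0.46, neither called with all arrays. Without DMSO array 1 of wild type both were called lower there too, against 8.11% of all. Of 8 markers of photosynthetic tissue 3 were measured. Their summed level ran from 11.89 to 11.97 in treated amp1-13, from 11.78 to 11.90 in untreated amp1-13 and from 11.85 to 11.90 in treated wild type, all above the 11.51 to 11.72 of untreated wild type. The summed level was thus lowest in untreated wild type, as were most genes of the run, but the 3 markers differed among themselves. With hyperphyllin in wild type PSAE-1, a photosystem I subunit gene, was called higher at 0.55 ± 0.10, while LHCB4.1, a light-harvesting protein gene, was at 0.40 ± 0.13 and RCA, which encodes Rubisco activase, at -0.01 ± 0.08, neither called. Without DMSO array 1 of wild type, 2 of the 3 were called higher there, against 6.30% of all named probe sets, with a median of 0.53. Between the genotypes in DMSO 0 of the 3 were called with all arrays, with a median of 0.35. Without DMSO array 1 of wild type 2 of the 3 were called higher there too, against 7.15% of all, with a median of 0.42. The part of these markers in the result was not tested. Of 8 markers of root endodermis and cortex 1 was measured, AT1G62500, which is also in the hybrid proline-rich list. It ran from 6.43 to 6.84 in treated amp1-13, from 6.20 to 6.38 in untreated amp1-13, from 5.25 to 5.88 in treated wild type and from 4.93 to 6.79 in untreated wild type. Between the genotypes in DMSO it was 0.65 ± 0.37 higher in amp1-13 and not called, and 1.23 higher and called without DMSO array 1 of wild type. With hyperphyllin in wild type it was not called with or without that array. Of the 7 markers of shoot epidermis and the 7 of seed 0 were measured, as none had a named probe set annotated to it alone.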

How the data were processed

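The authors deposited log2 expression values of 38408 probe sets on 12 arrays, made with RMA per the submitters' processing notes; its software, version and probe definitions are not given in the sources used here. The values ran from 0.593 to 12.7, with no further normalization. Scanner intensities were not analysed here, so signal over background is unknown, and the number of arrays limits the precision. GEO's platform annotation named 17504 probe sets (45.6%), 16746 with 1 gene. Genes were matched to RefSeq (TAIR10.1), used for names and neighbours only; the build of the array is not stated and no sequence was used.

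Group means were estimated from the 12 arrays jointly, using limma 3.58.1 (lmFit, contrasts.fit and eBayes under R 4.3.3) that had been tested on simulated data, with adjustment over the 17504 named probe sets and calls under 0.05. SE is that of the fit. All 8 members are named whatever their values; flanking genes were the nearest measured one on each side, list genes the 2 furthest from 0 with hyperphyllin in wild type, and likeness took the 5 highest r. The members and lists were chosen with earlier results of these data known. Lists were written from general knowledge, and a gene with several probe sets was represented by the brightest. Replicate numbers were not used to pair the arrays in the main fit. Of 18 same-numbered pairs 4 had residual correlations over 0.1, with a mean of 0.03. Among 36 other-numbered pairs it was 9, with a mean of -0.01.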

Additional observations from a re-analysis of the deposited data

Results flagged for a closer look

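AT4G22470 and AT4G22485 were higher in amp1-13 than in wild type on every DMSO array (by 1.59 and 0.42 on the log2 scale) and lower in amp1-13 on every hyperphyllin array (by log2 differences of -0.50 and -0.44). They are listed because the groups separated in opposite directions with and without the compound. With hyperphyllin the gap was narrow. The highest amp1-13 and lowest wild-type values were 8.538 and 8.595 for AT4G22470, and 9.828 and 9.835 for AT4G22485. The differences there were -0.50 ± 0.40 and -0.44 ± 0.15. The interaction was -2.09 for AT4G22470 and -0.855 for AT4G22485; limma did not call either, and the separation itself was not tested.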

How the results depend on the processing

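No called difference changed sign under any alternative; of those not called, AT4G22460 changed sign with DMSO array 1 alone for wild type, between the genotypes in DMSO (0.31) and in the interaction (-0.26), and AT4G22460 and AT4G22520, both near 0 between the genotypes with hyperphyllin, did so there on leaving out 1 array. With 1 array alone for wild type in DMSO, its spread is assumed to be that of the other groups. With hyperphyllin in wild type the count of 6 called genes ran from 4 to 7 with other settings and from 2 to 7 with 1 array left out. For amp1-13 against wild type in DMSO the count of 1 was 0 over all 38408 probe sets, 5 with array weights, 2 with a trended and robust prior, 0 after quantile normalization again, 2 with dim probe sets left out, 0 with the replicate block, 0 with only the groups of the comparison and 0 with DMSO array 1 alone for wild type, and ran from 0 to 6 with 1 array left out. For the interaction the count of 0 was 4 with array weights and ran from 0 to 4 with 1 array left out. The 2 other comparisons gave 0 called genes under every alternative. The replicate block changed no other count of called members. The cause of these changes was not tested. With AT4G22460 and AT4G22513 among the dim probe sets, 6 members were tested there. For the gene lists and flanking genes, the values without wild-type DMSO array 1 were added after seeing the data. Signal over background was not known, which limits how far low values such as those of AT4G22513 can be read.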
